A study of Mus musculus with 6 samples.

Results

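The cystine, glutathione and ferroptosis defence genes examined here were 10 mouse genes named by symbol: Chac1, Chac2, Slc7a11, Slc3a2, Gclc, Gclm, Gss, Gpx4, Aifm2 and Acsl4. All 10 were among the 55367 rows of the deposited table, and all 10 passed the filter on low values, a mean of at least 10 reads, as did 12618 genes in all. The list was chosen by the measured read levels of Chac1 and Slc7a11, which fell strongly after STM2457 in these same libraries, so the difference between treatments is given for the 10 genes as a description with no p-value. RNA sequencing was done on LLC cells, a line from a Lewis lung carcinoma labelled wild type, in 2 groups of 3 libraries. One group received the solvent DMSO for 46 h and the other 5 µM STM2457 for 46 h, and both were cultured in DMEM with fetal bovine serum and antibiotics. STM2457 is a small molecule that inhibits METTL3, an RNA methyltransferase that makes N6-methyladenosine. Whether each library had its own culture is not stated in the labels, so spreads and p-values cover only these libraries and may be technical.

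Ferroptosis is a form of cell death in which iron drives the peroxidation of polyunsaturated membrane lipids. The antiporter system xc-, made of the light chain SLC7A11 and the heavy chain SLC3A2, imports cystine, which is reduced to cysteine. Glutamate-cysteine ligase (catalytic subunit GCLC, modifier subunit GCLM) and glutathione synthetase (GSS) build glutathione from it, CHAC1 and CHAC2 break glutathione down inside the cell, and GPX4 spends it to reduce lipid hydroperoxides. AIFM2, also called FSP1, protects membranes without glutathione by reducing ubiquinone, and ACSL4 activates the polyunsaturated fatty acids that are later oxidised. ATF4, the transcription factor of the amino acid stress response, and NRF2, that of the oxidative stress response, are both known to drive genes of this pathway.

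The recovered reads in genes numbered 17671713 to 17917211 per library, with size factors of 0.995 to 1.01, so reads from different libraries can be set side by side almost as they stand. The reads were recovered from deposited log2 values, and 54 of the 60 values of the 10 genes came out within 0.05 of a whole read. The largest distance from a whole read was 0.299, for Slc3a2. As to the labelled cell type, all 5 mesenchymal markers were present, with Vim at a mean of 49547 normalised reads, while Epcam and Cdh1 were at 0 in every library and the 5 epithelial markers together reached at most 14.0 normalised reads. The 6 markers of lung epithelium summed to at most 3.97 normalised reads per library, with Sftpa1 and Nkx2-1 at 0. Of 7 haematopoietic markers, Cd68 was the only marker with a mean of at least 10 reads, and Adgre1, Cd3e and Itgam were at 0. The haematopoietic sums were 89.4 to 111.5 normalised reads in DMSO and 86.2 to 110.3 after STM2457. The mesenchymal sums were 100955 to 104017 in DMSO and 83471 to 85241 after STM2457, and those of 5 fibroblast markers, all detected, were 301.4 to 336.5 and 213.7 to 226.5. The 5 endothelial markers reached at most 9.93. The part of these shifts in the results below was not tested.

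The sequences before the start sites of 4 of the genes are shown because Chac1 and Slc7a11, the genes with the deepest falls, carry matches there to an ATF4-type element. Chac2, the paralog of Chac1, and Gclm, with a match to an NRF2-type element, are set beside them. They are the 250 bases before the RefSeq start of each gene (build GRCm38.p6), 5′ to 3′ on the strand of the gene: chr2:119350992-119351241 on the plus strand for Chac1, chr3:50443614-50443863 on the minus strand for Slc7a11, chr11:30986366-30986615 on the minus strand for Chac2 and chr3:122245307-122245556 on the plus strand for Gclm. Capitals mark matches, on either strand, to the C/EBP-ATF response element TGATGNAA, to which ATF4 binds with C/EBP partners, and in Gclm to the antioxidant response element TGACNNNGC, to which NRF2 binds.
Chac1: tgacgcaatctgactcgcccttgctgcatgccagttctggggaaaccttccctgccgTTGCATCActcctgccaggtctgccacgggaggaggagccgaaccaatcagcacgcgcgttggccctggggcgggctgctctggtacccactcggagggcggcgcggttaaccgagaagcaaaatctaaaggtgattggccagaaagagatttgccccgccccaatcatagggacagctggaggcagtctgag
Slc7a11: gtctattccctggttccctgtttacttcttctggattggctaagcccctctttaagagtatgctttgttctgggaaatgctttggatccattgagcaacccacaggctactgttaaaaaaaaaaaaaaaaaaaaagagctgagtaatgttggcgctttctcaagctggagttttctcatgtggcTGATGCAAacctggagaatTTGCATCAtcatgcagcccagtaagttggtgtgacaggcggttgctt
Chac2: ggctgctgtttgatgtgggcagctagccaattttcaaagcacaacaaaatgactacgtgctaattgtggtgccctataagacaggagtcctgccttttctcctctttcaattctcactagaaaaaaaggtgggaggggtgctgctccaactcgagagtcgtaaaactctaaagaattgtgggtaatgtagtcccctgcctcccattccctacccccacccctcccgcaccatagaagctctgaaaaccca
Gclm: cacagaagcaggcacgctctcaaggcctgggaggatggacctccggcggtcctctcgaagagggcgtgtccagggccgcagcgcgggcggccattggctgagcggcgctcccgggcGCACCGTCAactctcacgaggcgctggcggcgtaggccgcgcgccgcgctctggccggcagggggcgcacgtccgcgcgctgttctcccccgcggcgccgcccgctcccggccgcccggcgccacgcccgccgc
RefSeq windows of 300 bases, 250 before and 50 after the start, were found for 9 of the 10 genes, Gclc being the other. In 2 of these 9 the element TGATGNAA had a match. Slc3a2 had none. The 250 bases before its start, chr19:8713898-8714147, lie inside the gene span given below. Those of Aifm2, chr10:61720399-61720648, do too, so the outer ends of these genes were not searched. Chac1 had 1 match, 193 to 186 bases before the start. Slc7a11 had 2 matches, at 66 to 59 and 47 to 40 bases before the start, and these face opposite ways. Of all 32851 windows in the table, 3.97% held the element. The antioxidant element had a match in Gclm alone of the 9, 134 to 126 bases before the start, and in 12.4% of all windows. No 2 of these matches overlapped. Those percentages count windows, of which a gene can have more than 1. Counted by gene, 238 of the 9384 tested genes with a window had a match to TGATGNAA and 1610 to TGACNNNGC. After STM2457, 37% of the 238 were called lower, against 24.9% of those without a match. For TGACNNNGC the shares called lower were 27.6% and 24.7%. These are counts with no test, and a match says only that the letters are present. The 238 genes include Chac1 and Slc7a11, on which the list was chosen, so nothing is read from these shares.

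By limma on the deposited log2 values, with p-values adjusted over all 12618 tested genes at a threshold of 0.05, 7 of the 10 genes were called lower after STM2457, where 25.7% of all tested genes were. They were Chac1, Slc7a11, Slc3a2, Gclc, Gclm, Gss and Gpx4. Chac2 alone was called higher (30.7% of all tested genes), and Aifm2 and Acsl4 were not called. In all, 56.3% of tested genes were called in either direction. With upper-quartile centring in place of the deposited scaling, the split over all tested genes moved from 3868 higher and 3240 lower to 2819 higher and 4814 lower. The 3 STM2457 libraries lay below the 3 DMSO libraries for the same 7 genes and above them for Chac2. Over all tested genes such separation was seen in 61.8%, with STM2457 below in 28.4% and above in 33.4%. Nothing is read from these counts, because the same contrast chose the list. The median fold, STM2457 over DMSO, was 0.883 over the 10 genes and 1.01 over all tested genes. The sizes were far apart: Chac1 had the 8th lowest fold of the 12618 genes, Slc7a11 the 94th, Slc3a2 the 656th and Gss the 2709th.

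**Figure D1:**
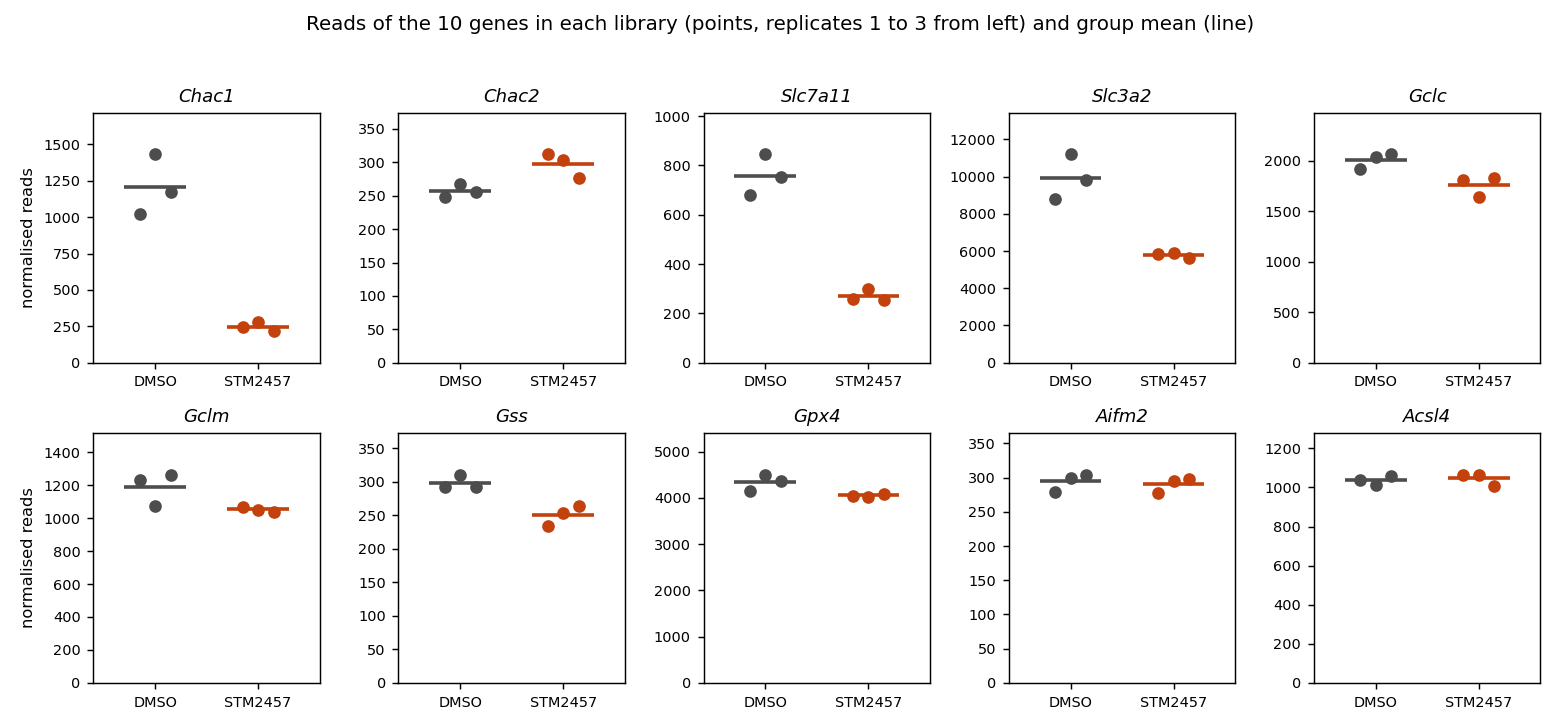
Normalised reads (y axis, from 0, with its own scale in each panel) of the 10 genes in the 3 DMSO and 3 STM2457 libraries; points are libraries, replicates 1 to 3 from left to right, and lines are group means. The groups are far apart for Chac1, Slc7a11 and Slc3a2, close but separate for Chac2, Gclc, Gclm, Gss and Gpx4, and overlap for Aifm2 and Acsl4.

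Both chains of the cystine antiporter had fewer reads after STM2457, and the fold was deeper for the light chain. Slc7a11, the chain that carries cystine in exchange for glutamate, had 680, 851 and 748 reads in DMSO replicates 1 to 3 and 260, 299 and 255 after STM2457. Every DMSO library held more than double the highest STM2457 library. Its level fell to 0.356 of DMSO (log2 fold -1.49, SE 0.09, in the recovered reads). Slc3a2, the heavy chain that brings this and other amino acid transporters to the membrane, had 8762, 11272 and 9758 reads in DMSO and 5890, 5935 and 5695 after STM2457. The groups did not overlap, and the level fell to 0.587 of DMSO (log2 fold -0.77, SE 0.09). The ratio of Slc3a2 to Slc7a11, each per exon length, was 50.8, 52.2 and 51.5 in DMSO and 89.4, 78.3 and 88.1 after STM2457. It was thus nearly constant across the DMSO libraries and higher in every STM2457 library. In bulk RNA, fewer cells that express a gene and less RNA per cell cannot be told apart. In the GENCODE M21 annotation of GRCm38, the build that the submitters' processing notes name, Slc7a11 occupies chr3:49892526-50443614 and Slc3a2 chr19:8706882-8723369, both on the minus strand.

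Slc3a2 also pairs with other light chains. Of the 6 listed here, only Slc7a5 and Slc7a6 had enough reads to be tested. Slc7a5, whose protein LAT1 imports large neutral amino acids, had 10004, 13286 and 11687 reads in DMSO and 6608, 6651 and 6419 after STM2457, a fall to 0.562 (limma adjusted p = 0.0019). Slc7a6, a light chain for basic and neutral amino acids, rose 1.16-fold (adjusted p = 0.0002). Slc7a8 and Slc7a10 were at 0 in every library. A count of 0 allows up to 3 reads.

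The 2 intracellular glutathione-degrading enzymes went in opposite directions. Chac1, the stress-induced form, had 1022, 1441 and 1166 reads in DMSO and 247, 284 and 220 after STM2457, a fall to 0.207 of DMSO (log2 fold -2.27, SE 0.21). Its lowest DMSO library lay at more than 3 times the highest STM2457 library. Chac2, the slower and constitutively expressed form, had 247, 270 and 254 reads in DMSO and 314, 305 and 279 after STM2457, 1.16-fold higher (log2 fold 0.21, SE 0.08). The highest DMSO library and the lowest STM2457 library of Chac2 were only 9 reads apart. Its call was lost with upper-quartile centring (log2 difference 0.05 in the deposited values, against 0.09). The same happened when DMSO replicate 1 (0.08) or 3 (0.09), or STM2457 replicate 1 (0.08) or 2 (0.08), was left out. Per exon length, the ratio of Chac1 to Chac2 was 3.32, 4.29 and 3.69 in DMSO and 0.632, 0.748 and 0.633 after STM2457. Chac1 was therefore the more abundant of the pair in every DMSO library and the less abundant in every STM2457 library. Chac1 occupies chr2:119351229-119354381 (plus strand) and Chac2 chr11:30976707-30986350 (minus strand).

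**Figure D2:**
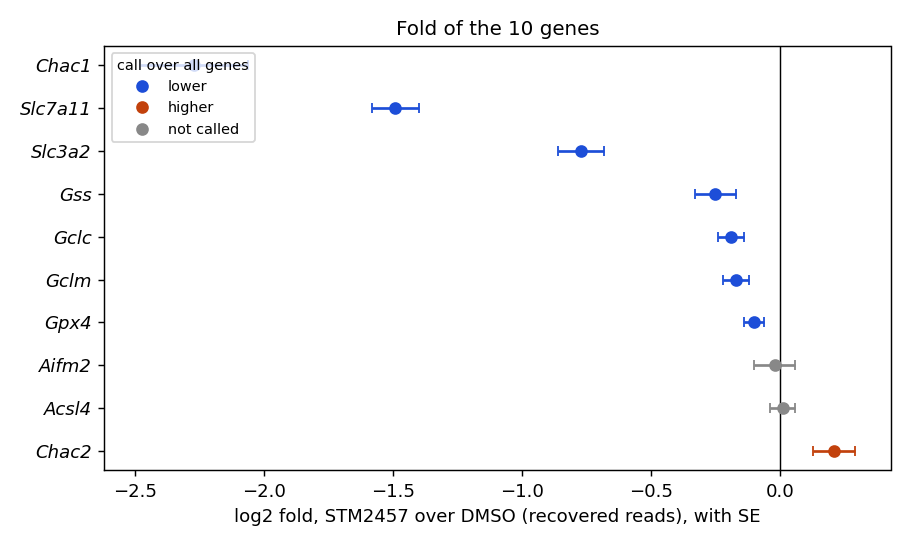
Log2 fold of STM2457 over DMSO from limma-voom on the recovered reads (x axis), with its SE as a bar, for the 10 genes (y axis), coloured by the call of the fit over all genes. Chac1 (-2.27), Slc7a11 (-1.49) and Slc3a2 (-0.77) lie apart from the other 7, which span -0.25 to 0.21.

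The enzymes that build glutathione were lower by small amounts. Gclc, the catalytic subunit of glutamate-cysteine ligase, had 1914, 2049 and 2052 reads in DMSO and 1821, 1652 and 1848 after STM2457, a fall to 0.878 (log2 fold -0.19, SE 0.05). Gclm, the modifier subunit, had 1228, 1084 and 1258 reads in DMSO and 1075, 1059 and 1050 after STM2457, a fall to 0.888 (-0.17, SE 0.05). For Gclm the lowest DMSO library and the highest STM2457 library were only 9 reads apart, and the lowest of the DMSO libraries was replicate 2. Without that replicate the fold was 0.845, and the call was lost without DMSO replicate 3 (log2 difference -0.07 in the deposited values, against -0.09). The ratio of Gclc to Gclm per exon length was 2.83 ± 0.291 in DMSO and 2.79 ± 0.170 after STM2457 (SD, n = 3), with overlapping ranges. Gss, glutathione synthetase, had 291, 313 and 291 reads in DMSO and 235, 255 and 266 after STM2457, a fall to 0.838 (-0.25, SE 0.08). The call for Gss was lost without STM2457 replicate 1 (log2 difference -0.09, against -0.11). Gclc occupies chr9:77754535-77794485 and Gclm chr3:122245557-122270732 (both plus strand), and Gss chr2:155563181-155592810 (minus strand). Exons of Gss overlap those of Acss2, Gssos1 and Gssos2 on the other strand, by 395, 322 and 385 bases. Those of Gclm overlap Gm17494 on the other strand by 296 bases and Gm6061 on the same strand by 244. No source used here says whether strand was used to count, so reads of these exons may belong to either gene.

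The genes that act on membrane lipids had the smallest folds of the 10. Gpx4, the selenoprotein that reduces phospholipid hydroperoxides, had 4139, 4539 and 4339 reads in DMSO and 4077, 4051 and 4134 after STM2457, a level of 0.936 of DMSO (log2 fold -0.10, SE 0.04). The lowest DMSO library and the highest STM2457 library were only 5 reads apart. Its call as lower was lost in 7 of 12 alternatives. These were no filter on low values (log2 difference -0.06 in the deposited values), plain priors, without trend or robust estimation (-0.06), and leaving out DMSO replicate 2 (-0.04) or 3 (-0.05) or STM2457 replicate 1 (-0.06), 2 (-0.05) or 3 (-0.06). Aifm2, the ubiquinone reductase that acts beside GPX4, had 279, 302 and 303 reads in DMSO and 280, 297 and 300 after STM2457, and the groups overlapped almost fully (0.986 of DMSO, log2 fold -0.02, SE 0.08). Acsl4, the acyl-CoA synthetase for polyunsaturated fatty acids, had 1038, 1018 and 1053 reads in DMSO and 1073, 1073 and 1018 after STM2457, also with overlap (1.01-fold, log2 fold 0.01, SE 0.05). The fold with 1 SE to either side spanned 0.935 to 1.04 for Aifm2 and 0.978 to 1.04 for Acsl4. Changes larger than these spans could also have been missed. Gpx4 occupies chr10:80047166-80056439 and Aifm2 chr10:61715263-61739260 (both plus strand), and Acsl4 chrX:142317993-142390535 (minus strand). Aifm2 exons overlap H2afy2 on the other strand by 233 bases.

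DMSO replicate 2 stood above DMSO replicates 1 and 3 for 6 of the 10 genes, against 34.5% of all tested genes. It exceeded the mean of the other DMSO libraries by 0.39 for Chac1, 0.27 for Slc3a2 and 0.24 for Slc7a11 on the log2 scale. For the other 7 genes this difference lay between -0.21 (Gclm) and 0.09 (Chac2 and Gss). Without that library the fold was 0.226 for Chac1, 0.376 for Slc7a11 and 0.625 for Slc3a2, so these falls were nearly as large. Without it 6 of the 10 genes were called lower, Gpx4 being the call that was lost, and Chac2 was called higher.

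Per length of merged exons, levels of the 10 genes spanned a wide range, and Chac1 held a lower place after STM2457. In DMSO the highest were Slc3a2 (158 ± 19.3 RPKM, reads per kilobase of exon scaled to the library total, SD, n = 3) and Gpx4 (141 ± 5.91), whose ranges overlapped. Chac1 (41.5 ± 7.08) and Gclc (29.9 ± 1.15) followed, each clear of its neighbours. Chac2 (10.98 ± 0.446), Acsl4 (10.8 ± 0.247) and Gclm (10.6 ± 0.893) could not be ordered beyond their spread. Aifm2 (4.02 ± 0.181), Slc7a11 (3.06 ± 0.332) and Gss (2.83 ± 0.103) were lowest, and the last pair overlapped. After STM2457 Gpx4 (132 ± 1.17) stood first, clear of Slc3a2 (92.4 ± 2.16). Chac1 (8.53 ± 1.11) moved down from place 3 to place 7, overlapping Gclm (9.41 ± 0.122). Slc7a11 (1.09 ± 0.0978) was last, below Gss (2.38 ± 0.146) in every library. These lengths are those of all annotated exons merged, and part of the order rests on that choice. With the longest protein-coding transcript as the length, an alternative added after seeing the data, the merged length was 3.01 times as long for Gss, 1.73 times for Gpx4, 1.51 times for Slc7a11 and 1.25 times for Slc3a2. Gpx4 (245 ± 10.2 RPKM, SD, n = 3) was then first in DMSO, clear of Slc3a2 (198 ± 24.2), and it was first after STM2457 too. Gss (8.54 ± 0.312 in DMSO) moved above Aifm2 (5.37 ± 0.242) in both groups and above Slc7a11 (4.63 ± 0.501) in DMSO. After STM2457 Gss was above Slc7a11 by either length. Chac1 kept place 3 in DMSO and place 7 after STM2457, where it overlapped Gss in place of Gclm, and Slc7a11 (1.64 ± 0.148) was last after STM2457 by either length.

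**Figure D3:**
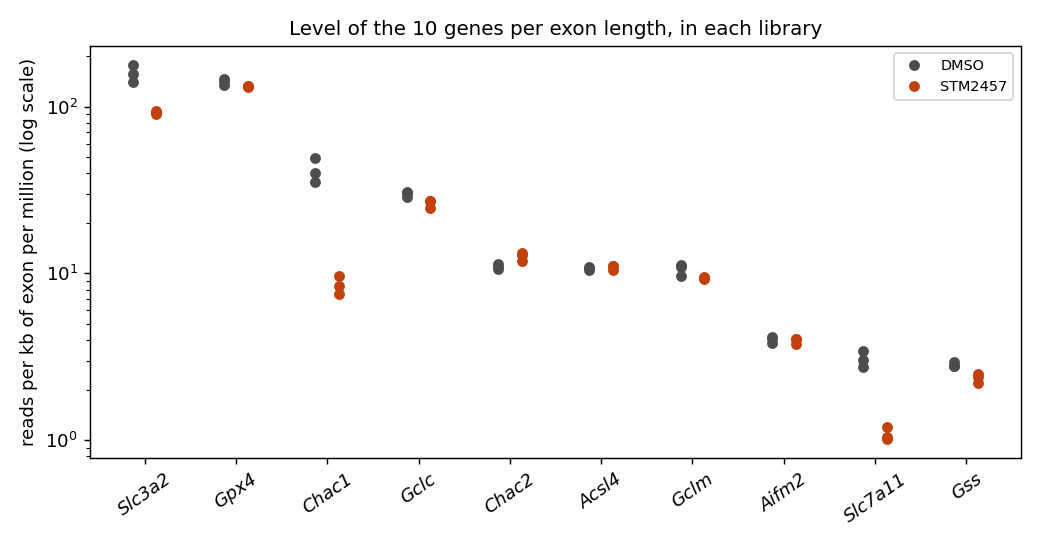
RPKM over merged exons (y axis, log scale) for the 10 genes in each DMSO and STM2457 library (points), ordered by the DMSO mean. Chac1 drops from 35.1 to 49.1 in DMSO to 7.49 to 9.69 after STM2457, below Chac2 at 11.8 to 13.3, while Gpx4, Aifm2 and Acsl4 stay at about the same height.

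Over the 6 libraries, the tested genes whose centred log2 profile lay nearest to that of Chac1, among 9752 with a mean of at least 100 normalised reads, were Glrp1 (root mean square distance 0.206), Cxcl5 (0.211), Trib3 (0.227), Abi3bp (0.263) and Gadd45a (0.293). Their folds were 0.268, 0.249, 0.271, 0.262 and 0.299. Nearest to Slc7a11 were Klhl33 (0.0475), Kif21b (0.107), Gpt2 (0.112), Cxcl1 (0.134) and Ddit4 (0.147), with folds of 0.348, 0.393, 0.391, 0.376 and 0.393. Trib3 and Ddit4 encode a pseudokinase and an mTORC1 inhibitor known as ATF4 targets, and Gpt2 is the mitochondrial alanine aminotransferase. With 2 groups, such likeness mostly restates an equal fold.

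Around these 10 genes, 196 other genes of the same pathways were listed in 10 groups, of which 159 were tested: 42 were called higher, 55 lower and 62 neither (26.4% and 34.6%, against 30.7% and 25.7% of all tested genes). Their median fold was 0.967, and without DMSO replicate 2 the counts were 42 higher and 55 lower. With upper-quartile centring they were 35 and 76. All p-values below are limma values adjusted over all tested genes. The count of each list below is for the deposited scaling and is to be read beside these shares of all tested genes.

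**Figure D4:**
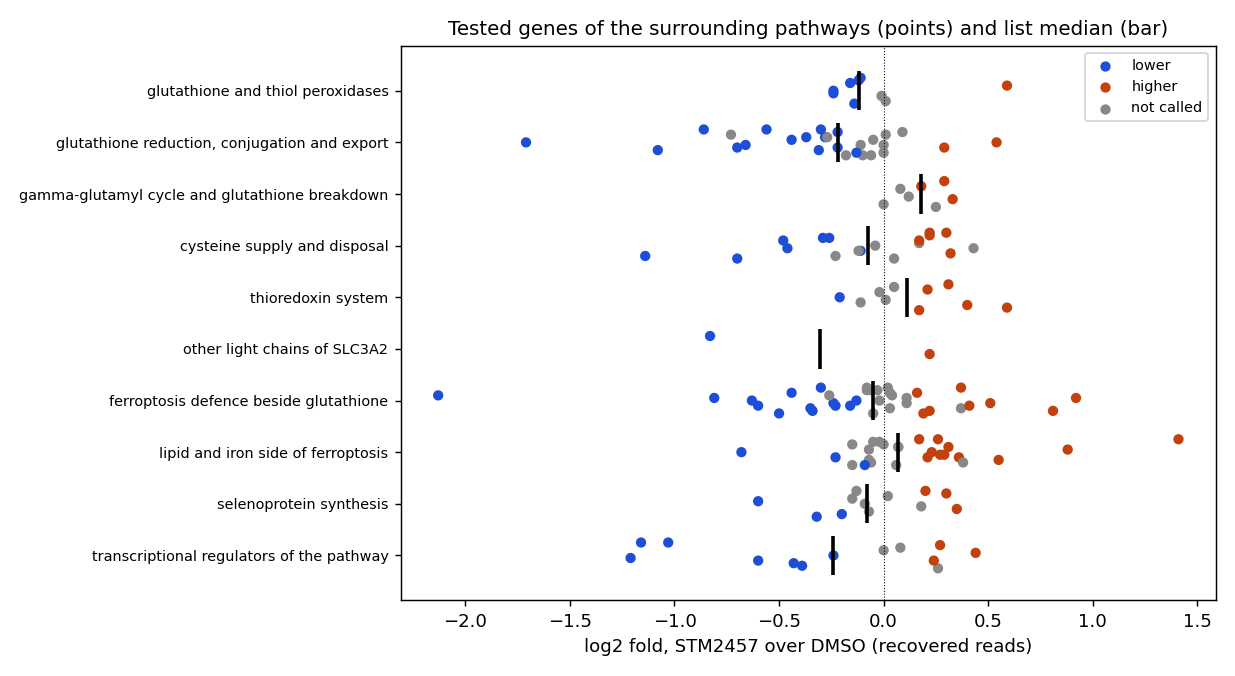
Log2 fold of STM2457 over DMSO (x axis, recovered reads) for the 159 tested genes of 10 surrounding gene lists (y axis), coloured by call, with the median of each list as a bar. The list of glutathione reduction, conjugation and export lies mostly left of 0, and that of the lipid and iron side of ferroptosis reaches farthest right, to Tfrc at 1.41.

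Transcripts of the regulators moved in different directions. Atf4 itself fell to 0.660 of DMSO, with 13881, 16197 and 14959 reads in DMSO and 10183, 10076 and 9637 after STM2457 (adjusted p = 4.6e-10). Nupr1, a stress-induced chromatin cofactor, fell to 0.448 (adjusted p = 4.4e-06). Nfe2l2, which encodes NRF2, rose 1.36-fold, from 4172, 4727 and 4224 reads to 5905, 5881 and 6157 (adjusted p = 3.4e-09). Of the 13 genes in this list 3 rose and 7 fell (median fold 0.846). The other 2 that rose were Mafk (1.21-fold), for a small MAF partner of NRF2, and Trp53 (1.18-fold). The other small MAF genes fell, Mafg to 0.846 (adjusted p = 1.6e-05) and Maff to 0.762 (adjusted p = 0.0061), as did Nfe2l1 (0.743, adjusted p = 0.009), which encodes the NRF2 relative NRF1. The remaining falls were of Atf3 (0.491) and Ddit3 (0.431), for stress factors downstream of ATF4. The Ddit3 call (adjusted p = 0.015) was lost without STM2457 replicate 1 (0.05), 2 (0.052) or 3 (0.054). DMSO replicate 2 was again highest for Atf4, Ddit3 (641, 1094 and 774 reads in DMSO), Atf3 and Nupr1, and without it Atf4 stood at 0.684, Ddit3 at 0.498, Atf3 at 0.543 and Nupr1 at 0.487 of DMSO. Mafk, Mafg, Maff, Nfe2l1, Trp53, Atf3 and Ddit3 were singled out after their values were seen, as were the other genes that complete a count of 5 or fewer below.

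Of the genes that conjugate, reduce or export glutathione, 14 of 27 tested fell and 2 rose (median fold 0.856). These are 51.9% and 7.41%, against 25.7% and 30.7% of all tested genes. Gstm1, a glutathione transferase, had 2266, 2583 and 2596 reads in DMSO and 1335, 1332 and 1457 after STM2457, a fall to 0.551 (adjusted p = 1.8e-11). Gsta4, the transferase for the lipid peroxidation product 4-hydroxynonenal, had 297, 279 and 251 reads in DMSO and 140, 128 and 126 after STM2457, a fall to 0.475 (adjusted p = 6.7e-10). No STM2457 library of either gene came near the DMSO range. Abcc1, an exporter of glutathione and its conjugates, fell to 0.677 (adjusted p = 2.9e-11), and Gsr, glutathione reductase, to 0.858 (adjusted p = 9.5e-05). The 2 that rose were Glrx5 (1.45-fold), a mitochondrial glutaredoxin of iron-sulfur cluster assembly, and the exporter gene Abcc4 (1.22-fold). Glutathione transferase genes form families of close copies between which reads may be shared.

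Of 9 tested peroxidase genes, 6 fell and 1 rose (median fold 0.922). The falls were small, with Prdx2 at 0.848 (adjusted p = 6.4e-06) and Prdx5 at 0.845 (adjusted p = 0.00014), both peroxiredoxins that reduce peroxides with thioredoxin. Gpx8, an endoplasmic reticulum member of the glutathione peroxidase family, rose 1.504-fold, from 1096, 1134 and 1275 reads to 1745, 1776 and 1775 (adjusted p = 5.2e-10). Gpx1, the main cytosolic glutathione peroxidase, stood at 0.992 of DMSO (adjusted p = 0.81). In the thioredoxin system 5 of 10 rose and 1 fell (median fold 1.08). The gene that fell was Txnrd1, the cytosolic thioredoxin reductase (0.865, adjusted p = 2.2e-05). The 5 were Nxn (1.24-fold), Txndc17 (1.16-fold), Txnip (1.51-fold), which encodes an inhibitor of thioredoxin, Txnrd3 (1.32-fold) and Txn2 (1.12-fold).

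Glutathione breakdown outside the CHAC enzymes showed no fall: of 7 tested genes 3 rose, 0 fell and 4 were not called. By limma-voom and at an unadjusted p under 0.05 the number that fell was also 0. The 3 that rose were the peptidase genes Cndp2 (1.26-fold, adjusted p = 6.6e-06), Lap3 (1.14-fold, adjusted p = 0.00039) and Anpep (1.22-fold, adjusted p = 0.008). The call of Anpep was lost with upper-quartile centring (adjusted p = 0.076). Ggct, another gamma-glutamylcyclotransferase, which acts on gamma-glutamyl amino acids rather than glutathione, had 60, 51 and 47 reads in DMSO and 54, 60 and 77 after STM2457 (adjusted p = 0.17). Ggt1, which starts glutathione breakdown at the cell surface, had a mean of 1.67 normalised reads in DMSO and 0.330 after STM2457 and was not tested.

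For cysteine supply and disposal 7 of 18 genes fell and 5 rose (median fold 0.951). Cth, cystathionine gamma-lyase, which makes cysteine from methionine by transsulfuration, had 608, 1008 and 749 reads in DMSO and 394, 344 and 322 after STM2457, a fall to 0.453 (adjusted p = 0.015). The groups did not overlap, but the DMSO libraries varied widely. Cth missed the threshold when DMSO replicate 3 (adjusted p = 0.051), STM2457 replicate 2 (0.056) or STM2457 replicate 3 (0.051) was left out, and in the fit with a replicate block (0.056). Without DMSO replicate 2 the fold was 0.517. Cbs, the enzyme before it in that route, was near absent, at 5.00 normalised reads in DMSO and 4.30 after STM2457. Slc1a4, a carrier of small neutral amino acids, fell to 0.615 (adjusted p = 3.8e-10) and Ahcyl1, related to the enzyme that hydrolyses S-adenosylhomocysteine, to 0.715 (adjusted p = 3.1e-10). Among those that rose were the thiol dioxygenase gene Ado (1.23-fold) and the sulfur-handling genes Mpst (1.17-fold), Ethe1 (1.17-fold) and Nfs1 (1.13-fold). The calls of Ethe1 and Nfs1 were lost with upper-quartile centring (adjusted p = 0.068 and 0.19). Ethe1 also missed it without DMSO replicate 3 (0.07), and Nfs1 when DMSO replicate 1 (0.061) or STM2457 replicate 3 (0.087) was left out.

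On the lipid and iron side of ferroptosis, 11 of 26 tested genes rose and 3 fell (median fold 1.05). The largest rises were in iron uptake. Tfrc, the transferrin receptor, had 1482, 1379 and 1359 reads in DMSO and 3892, 3868 and 3559 after STM2457 (2.66-fold, adjusted p = 9.4e-18). Steap3, the endosomal ferrireductase, rose 1.84-fold, from 1028, 965 and 980 reads to 1841, 1911 and 1755 (adjusted p = 1.6e-13). Slc11a2, the endosomal iron exporter DMT1, rose 1.47-fold (adjusted p = 1.3e-09). The groups of these genes lay far apart, with every STM2457 library above every DMSO library. The 3 that fell were the oxidoreductase gene Cyb5r1 (0.626, adjusted p = 0.014), Gnpat (0.854) of ether lipid synthesis and Vdac3 (0.936). The Cyb5r1 call was lost without STM2457 replicate 1 (0.05). Vdac3 (adjusted p = 0.028) missed the threshold when DMSO replicate 3 (0.056), STM2457 replicate 1 (0.074) or STM2457 replicate 2 (0.1) was left out, with no filter for low genes (0.07) and with plain priors (0.055). Of the acyl-CoA synthetases related to Acsl4, Acsl1 (1.28-fold, adjusted p = 3.4e-05) and Acsl5 (1.24-fold, adjusted p = 5.4e-07) rose, named after their values were seen. Acsl3, which activates monounsaturated fatty acids, stood at 0.945 (adjusted p = 0.2) and was called lower with upper-quartile centring (0.019). The lipoxygenase genes Alox5 and Alox12 were at 0 in every library, which allows up to 3 reads, and Alox15 had a mean of 0 in DMSO and 0.331 normalised reads after STM2457. Aloxe3, of the same family, was tested, with 10, 16 and 10 reads in DMSO and 14, 22 and 12 after STM2457. Its groups overlapped (1.30-fold, adjusted p = 0.32).

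Defences beside glutathione were mixed: of 35 tested genes 8 rose and 13 fell (median fold 0.967). Fth1, the ferritin heavy chain that stores iron, had 32002, 35585 and 31030 reads in DMSO and 21033, 22850 and 20211 after STM2457, a fall to 0.646 (adjusted p = 2.4e-08). Hmox1, haem oxygenase, an NRF2 target, had 3822, 3535 and 4601 reads in DMSO and 2366, 2116 and 2340 after STM2457, a fall to 0.569 (adjusted p = 0.0039). Both groups were clear of each other for these genes. Processed copies of ferritin genes are common in the genome and may share reads with Fth1. Nqo1, a quinone reductase and NRF2 target, had 876, 1144 and 900 reads in DMSO and 757, 756 and 936 after STM2457, with overlap (adjusted p = 0.17). It was called lower with no filter for low genes (0.00036), with plain priors (0.043) and without STM2457 replicate 3 (0.014). Spr, sepiapterin reductase of tetrahydrobiopterin synthesis, rose 1.90-fold, from 810, 735 and 726 reads to 1462, 1427 and 1445 (adjusted p = 1.7e-13). Coq10b, a ubiquinone-binding protein of mitochondria, rose 1.76-fold (adjusted p = 2.3e-09).

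Making GPX4 needs the machinery that inserts selenocysteine. Of 12 tested genes 3 rose and 3 fell (median fold 0.945). This is 25% in each direction, near the 30.7% and 25.7% of all tested genes. Trit1, the tRNA isopentenyltransferase, fell to 0.661 (adjusted p = 4.1e-08), Sars, the seryl-tRNA synthetase, to 0.802 (adjusted p = 2.6e-06) and Secisbp2l to 0.868 (adjusted p = 0.00037). Lrp8, a receptor that takes up selenoprotein P, rose 1.27-fold (adjusted p = 2.2e-06), Sephs2, selenophosphate synthetase, 1.23-fold (adjusted p = 1.8e-05) and Eefsec, the selenocysteine elongation factor, 1.145-fold (adjusted p = 0.0054). The Eefsec call was lost with upper-quartile centring (0.079).

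**Figure D5:**
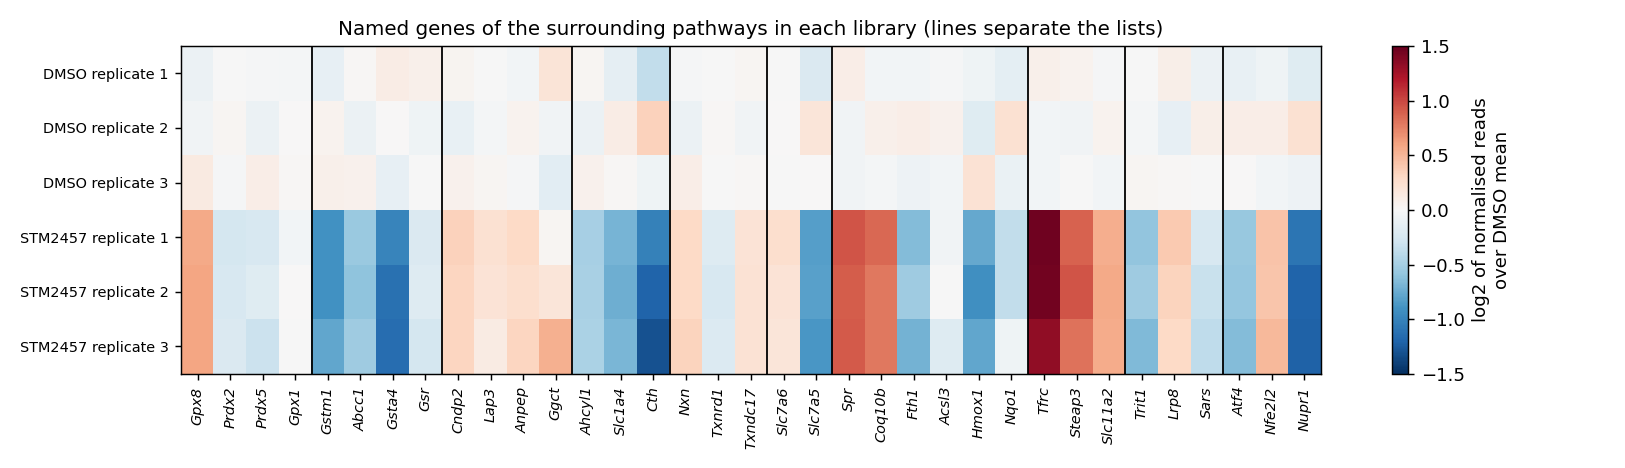
Log2 of normalised reads over the DMSO mean (colour) for 35 named genes of the surrounding lists (x axis, lists separated by lines) in each library (y axis). All 3 STM2457 rows are blue for Gstm1, Gsta4, Cth, Slc7a5 and Nupr1 and red for Spr, Coq10b, Tfrc and Steap3. DMSO replicate 2 is faintly red for Cth, Slc7a5 and Nupr1.

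Exons of Prdx2, Prdx5, Coq10b, Slc11a2, Ddit3, Txnip, Ethe1, Nfs1, Gnpat, Sephs2, Eefsec, Mafk, Acsl1 and Acsl5 lie across from exons of another gene on the opposite strand, and the same doubt holds for their reads.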

How the data were processed

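RNA from 6 LLC libraries, 3 with DMSO and 3 with STM2457, was sequenced, per the labels' protocols, from libraries made with a SMARTER kit for mRNA. The submitters' processing notes name HISAT2 2.2.1, featureCounts 2.0.1 (Subread), DESeq2, FastQC 0.11.9 and the build GRCm38. No source used here gives the annotation, the use of strand or the transform. The authors deposited log2 values per gene, which have the form of a regularised log transform: normalised counts on the log2 scale whose differences are drawn towards the gene's mean, so that at the highest counts 59.9% of a difference is kept. Reads per library were recovered by inverting that transform, with penalty, dispersion and size factors fitted so that genes give whole reads. The last step of the fit used 9863 genes already near whole reads, of 11069 in its range of levels. The shares that follow therefore partly restate what was fitted. Values lay within 0.05 of a whole read for 98.78% at means under 500 reads, 88.71% from 500 to under 2000 and 72.81% above. Of 55367 rows, 31229 were at 0 in all libraries.

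The 12618 genes whose deposited values averaged 3.32 or more, that is 10 reads, were tested with limma 3.58.1 (statmod 1.5.0, R 4.3.3, trend and robust priors) on the deposited log2 values, two-sided, adjusted by Benjamini-Hochberg over all of them, at 0.05. This is the test chosen for log2 values from the start. Folds, log2 folds and their SEs come from limma-voom on the recovered reads, and a "log2 difference" is one in the deposited, shrunken values. Levels per length (RPKM) are recovered reads per kilobase of merged GENCODE M21 exons, scaled to library totals. The test was also run on simulated data for this comparison (12618 genes). At a simulated log2 fold of 1 limma called 100 of 100 genes, at 0.5 it called 84 of 100, and it called 17 of 12418 unchanged genes. The 200 changed genes all had a mean of at least 50 reads, so genes with fewer reads are not covered. In the data 56.3% of tested genes were called, far more than were changed in the simulation.

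The 10 genes and the surrounding lists were chosen with earlier results of these data known. The rule for names took the 10 genes, up to 3 genes of smallest adjusted p per list (called, not overlapping, mean of at least 100 normalised reads), 11 genes fixed by name, and the 5 genes nearest in profile to Chac1 and to Slc7a11. A further 26 tested genes were singled out after their values were seen, and 1 gene that the rule named is not reported here. Alternatives were upper-quartile centring, other filters, limma-voom, plain priors, a replicate block and leaving out each library, and, added after seeing the data, transcript length for levels. Promoter sequences are from RefSeq.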

Additional observations from a re-analysis of the deposited data

How the results depend on the processing

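Chac1, Slc7a11, Slc3a2 and Gclc kept direction and call in all 12 alternatives. These alternatives fit the same libraries that chose the list, so the calls kept are a description and no support for the falls. The count of the 10 genes called higher went from 1 to 0 with upper-quartile centring and ranged from 0 to 1 when each library was left out, and that called lower ranged from 5 to 7. The differences of Aifm2, Acsl4 and Gpx1, none of them called, changed sign around 0: leaving out each library moved Aifm2 between -0.03 and 0.00 (above 0 without DMSO replicate 3 or STM2457 replicate 1), Acsl4 between -0.00 (without DMSO replicate 2) and 0.02, and Gpx1 between -0.01 and 0.00 (without STM2457 replicate 1), and Acsl4 was at -0.03 with upper-quartile centring. Over all tested genes, leaving out a library gave 3402 to 3797 higher and 2704 to 3152 lower. The correlation of same-numbered deviations was 0.011 to 0.0501, and that of unlike-numbered ones -0.0563 to 0.0218. All were near 0, and such values cannot settle whether replicate numbers pair the libraries. With the replicate block 3864 genes were called higher and 3226 lower, of the 10 genes 1 higher and 7 lower, and of the surrounding genes 43 higher and 55 lower; Cth was the only named gene whose call was lost (adjusted p = 0.056). Among named surrounding genes, 718 of 743 values under alternatives kept direction and side of the threshold. Precision is limited by depth where differences are small: Gss had 235 to 313 reads, Chac2 247 to 314 and Aifm2 279 to 303. Places in the order of levels per length moved with the length used, as given with those levels.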

Other observations

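Single genes near the pathway had values of their own. Coq8a, an atypical kinase of ubiquinone synthesis, had 26, 32 and 26 reads in DMSO and 3, 10 and 7 after STM2457, a fall to 0.228 (limma adjusted p = 5.6e-06) at low depth, and its exons overlap a gene on the other strand. Slc25a40, a mitochondrial glutathione carrier, had 484, 551 and 504 reads in DMSO and 324, 307 and 351 after STM2457, a fall to 0.634 (limma adjusted p = 1.9e-08).

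METTL3 methylates adenosine mostly within DRACH-type sequences, of which GGACT is the commonest form. In the longest protein-coding transcript of each of the 10 genes in GENCODE M21, GGACT was counted as a description of the letters, with no measure of methylation. Gss had the highest density at 2.55 per kilobase, then Slc3a2 at 1.42 and Chac1 at 1.22, while Slc7a11 had 0.434 and Gpx4 none in 995 bases. Over 11013 tested genes the quartiles were 0.639, 1.04 and 1.5 per kilobase, and 7.3% had none. By density, Chac1 and Slc7a11, the pair with the deepest falls, lay on opposite sides of that median. By number the order was the reverse, with 4 in the 9223 bases of Slc7a11 and 2 in the 1637 of Chac1. Any part of these letters in the falls was not tested.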
